A study of Mus musculus with 6 samples.

Results

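The comparison described here set mouse embryonic stem cells without DGCR8 (KO) against cells with an induced wild-type DGCR8 (wt), across all genes of the deposited count table. It used 4 of the 6 libraries of the series, chosen by their labelled genotype: KO libraries 1 and 3 and wt clones 12 and 16. Per the labels, KO cells had the genotype DGCR8 -/- and were not transfected, whereas wt cells are labelled DGCR8 wt/wt and received the Sleeping Beauty vector pSB ET iE-FlagDGCR8-wt with the transposase plasmid pCMV(CAT)-SB100X. Every culture, KO included, received doxycycline (300 ng/mL, 48 h). Cells were kept on gelatin without feeders, in medium with serum and LIF with the GSK3 inhibitor CHIR99021 and the MEK inhibitor PD0325901. The remaining libraries, from cells with the E518K form of DGCR8, entered the fit only to estimate the spread. Both KO titles carry clone number 261, although the design text speaks of independent clones, so the KO libraries may be technical repeats of 1 clone and p-values measure only the spread between these libraries. The KO cells carried no vector, and so presence of DGCR8, presence of a vector and clone cannot be told apart.

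DGCR8 binds the hairpins of primary microRNA transcripts and, with the nuclease Drosha, releases the precursors that Dicer cuts into mature microRNAs (miRNAs). Mouse embryonic stem cells are known for abundant miRNAs of the miR-290, miR-302 and miR-17 groups, which share related seed sequences and lower the messages that carry a matching site in the 3′ UTR. Cells without DGCR8 lack these canonical miRNAs and are known to divide slowly and to differentiate poorly.

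Library totals lay between 73642784 and 75121971 counts. The biological coefficient of variation was 2.60% for the KO pair and 20.6% for the wt pair. All 10 embryonic stem cell markers examined were expressed, at 59.9 to 2029 CPM (counts scaled to library size) in every library, and 7 of them were lower and 1 higher in KO. The summed level of the 8 fibroblast markers was 5.50 to 6.58 CPM in KO and 4.25 to 6.34 CPM in wt. Of 5 neural markers 3 were higher and none lower, with a summed level of 75.2 to 80.7 CPM in KO and 53.9 to 57.4 CPM in wt. Among them the neural transcription factor Pax6 rose by 3.36, the microtubule protein Map2 by 1.68 and the neuronal tubulin Tubb3 by 0.53 (log2), while Sox1 and Nes did not pass (-0.73 and -0.17). The part of the neural markers in the results below was not tested. Counts covered the whole genomic span of each gene, introns included and strand ignored, and 3283 of the tested genes (19.9%) overlapped another gene and can share its reads. Of the genes named below, Dgcr8, Jak1, Gys1, Gsto1, Paox, Kif7, Cbx7, Tjp3, Dock2, Ciita, Tap1, B2m, Hoxd3, Mcm7, Cacna1h, Pcsk1n, Xlr3b, Xlr3c, Tgtp1, Tgtp2, Gbp8, Gbp9, mt-Co3 and mt-Atp6 are among them.

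Most tested genes differed between the groups, and most of that difference was present against each wt clone taken singly. Of 16498 genes tested with edgeR's quasi-likelihood test, 9429 (57.2%) passed an adjusted p of 0.05, with 4526 higher (27.4%) and 4903 lower (29.7%) in KO. When KO was set against clone 12 alone, 10952 of 17070 genes (64.2%) passed, 31.1% higher and 33.0% lower. Against clone 16 alone 9835 (57.6%) passed, 27.3% higher and 30.3% lower. These fits share the KO libraries. Their spread came from the KO and E518K pairs, with coefficients of variation of 2.60% and 9.19%, against 20.6% for the wt pair. They may therefore call too many genes. Of the 9429 genes, 8481 (89.9%) also passed in the same direction against each clone alone, which is 51.4% of all genes tested. The difference was 2-fold or more against each clone for 2683 of them. A further 592 genes passed the same way against clone 12 only, 286 against clone 16 only and 70 against neither. Clone 12 lay farther from KO than clone 16 did for 5793 of the 8481 genes (68.3%). Both KO values lay outside the range of the wt values for 81.7% of tested genes, above it for 40.1% and below it for 41.6%, so absence of overlap alone sets few genes apart. With the KO libraries summed into 1, 6163 genes were called against wt and 5935 held against each clone.

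**Figure D1:**
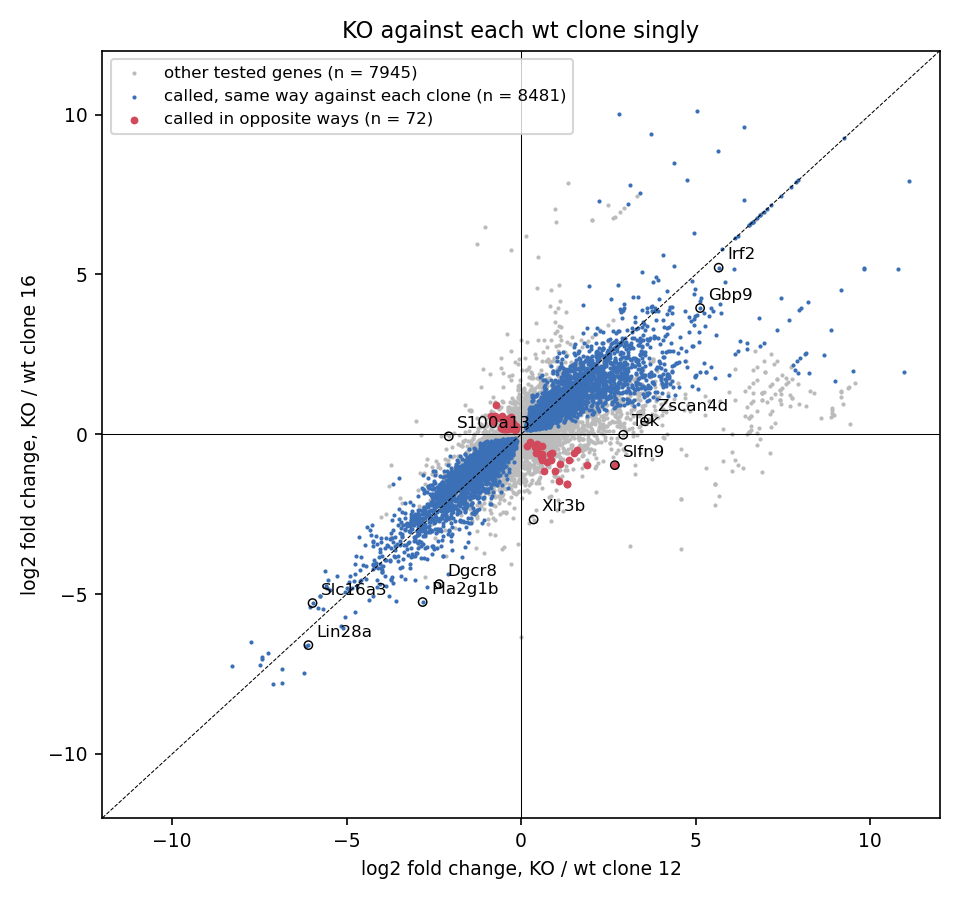
Log2 fold change of KO against wt clone 12 (x axis) and against wt clone 16 (y axis) for each tested gene, with the line of equality dashed. The 8481 genes that were called the same way against each clone (blue) lie in the upper right and lower left, and the 72 genes called in opposite ways (red) lie in the other corners.

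Dgcr8 itself, the targeted gene, was lower in KO by an amount that depended on the clone. It was at 40.0 and 37.1 CPM in the KO libraries, 196 CPM in clone 12 and 992 CPM in clone 16. The groups did not overlap, and the clones were far apart, although their difference did not pass the test (adjusted p = 0.17). The log2 fold change was -3.95 ± 0.73 (SE, adjusted p = 0.0032, edgeR), and it was -2.35 against clone 12 (adjusted p = 0.051) and -4.69 against clone 16 (adjusted p = 0.015). For Dgcr8 against wt, the adjusted p was 0.0535 without clone 16, 0.0586 without KO 1 and 0.0625 without KO 3. Reads from the vector and from the endogenous gene cannot be told apart in these counts.

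The other 4 markers given with the comparison were less affected by the choice of clone. Lin28a, an RNA-binding protein that blocks maturation of let-7, was at 1.19 and 1.22 CPM in KO and at 82.3 and 117 CPM in wt, with log2 fold changes of -6.10 against clone 12 and -6.60 against clone 16. The transcription factor Irf2 went the other way, from 0.138 and 0.189 CPM in wt to 7.07 and 7.10 CPM in KO. The Hippo kinase Lats2 was at 54.5 and 54.9 CPM in KO and at 7.45 and 7.74 CPM in wt. The glycolytic enzyme Aldoa fell by 2.50 on the log2 scale against clone 12 and by 2.19 against clone 16. For each of these 4 genes, the KO and wt libraries were clearly apart, and the groups did not overlap for 81.7% of all tested genes.

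Among genes that rose against each clone, overlap no other gene and had a mean log2 CPM of at least 1, several of the 15 largest increases were in innate immune genes. Scarcer genes such as Gbp2, described below, differed by more. Zbp1, a sensor of Z-form nucleic acids, was at 16.1 and 17.2 CPM in KO and 0.303 and 0.298 CPM in wt, a log2 fold change of 5.78 ± 0.29 (adjusted p = 2.5e-05). Nlrp12, an inhibitory NOD-like receptor, was by far the most abundant of the group, at 404 and 368 CPM in KO against 12.8 and 13.98 CPM in wt. The antiviral enzyme Rsad2 rose by 4.35 ± 0.40, the immunity-related GTPase Irgm1 by 4.30 ± 0.42, the galectin Lgals9 by 4.13 ± 0.33 and the interferon-inducible Nmi by 4.11 ± 0.38 (log2). Evx1, a homeobox factor of the primitive streak, was at 8.57 and 9.05 CPM in KO and 0.152 and 0.325 CPM in wt.

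Fbxo32, a muscle ubiquitin ligase, was at 13.9 and 12.1 CPM in KO and 0.414 and 0.622 CPM in wt. The phospholipid-binding Anxa3 was at 23.8 and 23.9 CPM against 0.745 and 1.03 CPM. Msln, a surface protein of mesothelium, was at 66.1 and 62.6 CPM in KO but at 4.43 CPM in clone 12 and 2.12 CPM in clone 16, and the clones differed from each other (adjusted p = 0.009). The aspartoacylase Aspa rose by 4.30 ± 0.37, the fucosyltransferase Fut2 by 4.33 ± 0.26, the secreted C1qtnf9 by 4.76 ± 0.32 and the cAMP phosphodiesterase Pde4b by 4.13 ± 0.46 (log2).

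The largest decreases, under the same limits on overlap and level, came after Lin28a in the genes that follow. Scarcer genes such as Pvalb and Ppp1r3c, described below, differed by more. The lactate exporter Slc16a3 was at 2.86 and 3.81 CPM in KO and 210 and 129 CPM in wt. Mycl, a MYC family factor, was at 2.47 and 2.18 CPM in KO and 55.6 and 55.3 CPM in wt, with a log2 fold change of -4.57 ± 0.12 (adjusted p = 4.5e-06), and its 2 wt levels were nearly the same. Among secreted and matrix genes, the adhesion protein Tgfbi fell by 4.89 ± 0.30, the lysyl oxidase Loxl2 by 4.72 ± 0.22, the proteoglycan Acan by 4.55 ± 0.50, the protease inhibitor A2m by 4.49 ± 0.27 and the IGF-binding protein Igfbp4 by 4.90 ± 0.28 (log2). The glutamate transporter Slc1a3 was at 0.297 and 0.233 CPM in KO and 3.41 and 6.68 CPM in wt. Qprt, an enzyme of NAD synthesis, was at 0.323 and 0.493 CPM in KO and 8.90 and 9.53 CPM in wt.

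The size of a decrease could differ between the wt libraries. The secreted phospholipase Pla2g1b was at 0.905 and 0.700 CPM in KO, 5.67 CPM in clone 12 and 30.5 CPM in clone 16. Its log2 fold change was thus -2.82 against clone 12 and -5.25 against clone 16, and the clones differed (adjusted p = 0.003). By contrast, Tekt5, a filament protein of sperm tails, was at 4.497 and 4.41 CPM in wt and at 0.155 and 0.207 CPM in KO. The tumour suppressor relative Rassf4 and the scaffold Mpp2 fell by 5.24 ± 0.42 and 4.32 ± 0.34 (log2).

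Some genes passed from near absence to clear expression. Using at most 3 counts in each library of 1 group and at least 50 in each of the other, 8 genes were near absence in wt and 6 in KO. Of the 8, 5 were guanylate-binding proteins (Gbp), large GTPases that attack vacuoles of intracellular pathogens and are classical interferon-induced genes. Gbp2 had 293 and 282 counts in KO, 0 in clone 12 and 1 in clone 16, a ratio of 545 with a 95% counting interval of 97.4 to 21559. Tgtp1, another interferon-inducible GTPase, had 180 and 196 counts in KO and 2 and 1 in wt, a ratio of 119 (40.3 to 579). Its near-copy Tgtp2 had 109 and 93 counts against 1 and 0. H60c, a ligand of the natural killer receptor NKG2D, had 83 and 76 counts in KO and none in wt, and was at least 50.2-fold higher on a floor of 3 counts over the wt group. Such intervals and floors cover counting error only.

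All 10 tested Gbp genes rose, from both of their clusters, on chromosome 3 (GRCm38 142493978 to 142783606) and chromosome 5 (105014150 to 105293698), and 9 of the 10 rose against each clone alone. Their median log2 fold change was 5.06, against -0.02 for all tested genes. With genes lacking a count set at their bound, it was 5.17 against clone 12 and 4.17 against clone 16. The most abundant members overlap one another on chromosome 5: Gbp8 was at 19.6 and 19.07 CPM in KO and 0.579 and 1.45 CPM in wt, and Gbp9 at 16.3 and 16.8 CPM against 0.469 and 1.07 CPM. Clone 16 was above clone 12 for both (log2 difference -1.32 ± 0.29 and -1.18 ± 0.32 for clone 12 minus clone 16). Reads of these similar paralogs may be split between them. No Gbp gene exceeded 19.6 CPM in any of the 4 libraries.

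**Figure D2:**
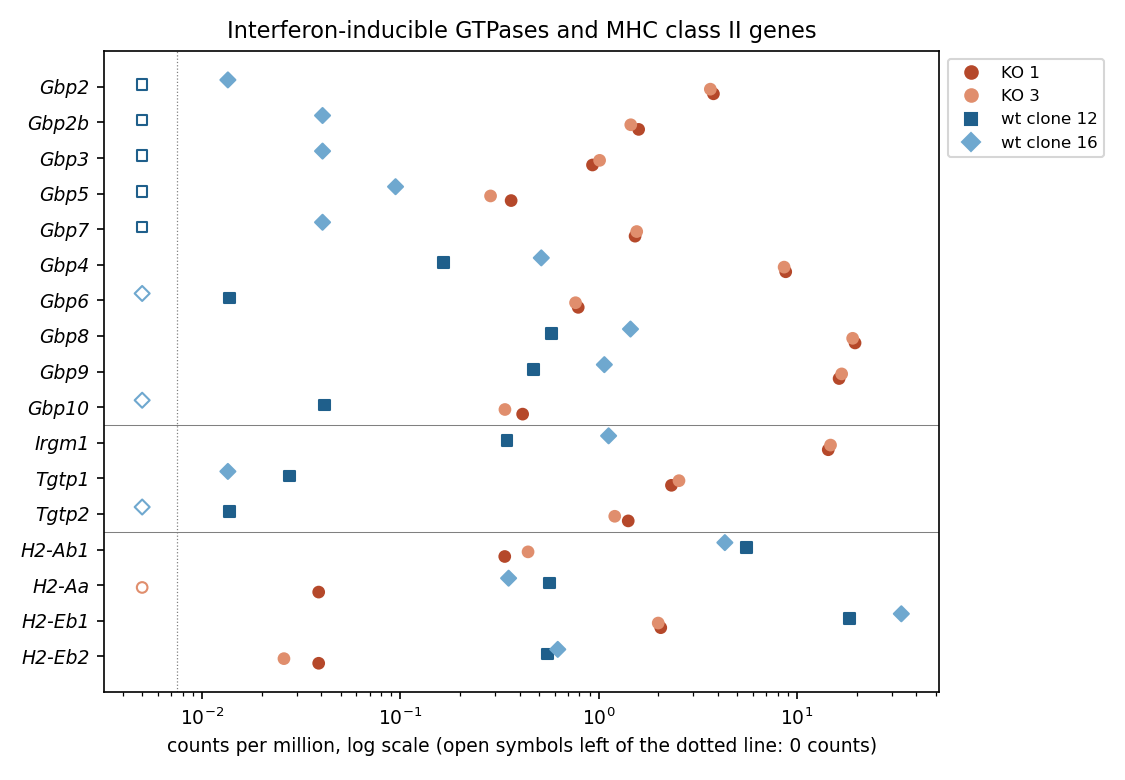
CPM (log scale) of the Gbp genes, Irgm1, Tgtp1 and Tgtp2, and MHC class II genes in KO 1, KO 3, wt clone 12 and wt clone 16. Open symbols left of the dotted line are libraries with no count. The GTPases are higher in KO and the class II genes lower in KO, with no overlap between groups, as for 81.7% of all tested genes.

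These promoters were read for the element that interferon regulatory factors bind, written GAAANNGAAA and searched on both strands. It was present in 2.96% of 14816 promoters of tested genes (250 bases before to 50 after the start, RefSeq, GRCm38.p6) and in 5 of the 6 promoters listed for Gbp genes, which cover 5 genes. It was in 5.76% of promoters of genes that rose at least 2-fold and in 2.43% of those that fell at least 2-fold. For the 15 largest increases it was in 4 of 13 promoters, and for the 15 largest decreases in 1 of 14. Another pattern searched, TTCNNNGAA, was in 6.74% of all promoters and 2 of the 6 Gbp promoters. It was in 7.24% of promoters of the genes that rose at least 2-fold and 4.08% of those that fell. A match is a description of the letters and not a shown binding site. The windows below show the GAAANNGAAA match in capitals, in the direction of the gene. They are only from genes that rose and held a match.
Gbp5, chr3:142496759-142496788, plus strand: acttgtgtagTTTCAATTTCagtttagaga
Gbp7, chr3:142530273-142530302, plus strand: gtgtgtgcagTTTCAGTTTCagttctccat
Gbp3, chr3:142559992-142560021, plus strand: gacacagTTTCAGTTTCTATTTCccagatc
Gbp2b, chr3:142594700-142594729, plus strand: gtacttctaaTTTCACTTTCttctttatca
Gbp2, chr3:142620594-142620623, plus strand: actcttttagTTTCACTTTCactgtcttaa
Irgm1, chr11:48871428-48871457, minus strand: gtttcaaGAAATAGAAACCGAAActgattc
Tgtp1, chr11:48992304-48992333, minus strand: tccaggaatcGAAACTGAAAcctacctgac
Rsad2, chr12:26456553-26456582, minus strand: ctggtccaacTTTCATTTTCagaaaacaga

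The 6 genes near absence in KO had unrelated functions. Pvalb, a calcium buffer of muscle and neurons, had 0 and 2 counts in KO and 188 and 160 in wt, a ratio of 184 (50.4 to 1522). Ppp1r3c, which targets a phosphatase to glycogen, had 2 and 0 counts against 182 and 136. The cartilage protein Matn3 had 2 and 0 counts against 162 and 124, and the calcium channel Cacna1h 3 and 3 against 194 and 128. Klk8 and Tac2, a secreted protease and the neurokinin B precursor, completed the group. All 6 were below 3 CPM in wt.

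Changes also fell in runs of neighbouring genes. Among tested genes in genome order, 21 runs of at least 5 consecutive genes changed at least 2-fold in 1 direction, 16 upward and 5 downward. These runs and the genes named from them were picked after their values were seen, and genes that overlap can share reads. Besides the Gbp clusters, an upward run on chromosome 11 held Irgm1, Tgtp1 and Tgtp2, and 1 on chromosome 7 held Trim5, Trim12a, Trim12c and Trim30a, members of a family that restricts retroviruses. Trim12c was at 27.5 and 24.99 CPM in KO, 2.23 CPM in clone 12 and 5.96 CPM in clone 16. Trim30a was at 4.31 and 4.47 CPM in KO, 0.138 CPM in clone 12 and 1.27 CPM in clone 16, and its adjusted p was 0.051 with only the 4 libraries.

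On chromosome 13 (93430101 to 94195409) a run held enzymes that pass methyl groups from betaine to homocysteine and onward. Dmgdh, dimethylglycine dehydrogenase, was at 76.2 and 75.7 CPM in KO and 14.7 and 12.1 CPM in wt. Bhmt2 was at 23.5 and 23.0 CPM against 3.81 and 3.22 CPM, and its neighbour Bhmt at 7.22 and 6.14 CPM against 1.66 and 1.05 CPM. Next to them, the lysosomal sulfatase Arsb was at 21.0 and 19.09 CPM in KO and 2.19 and 2.00 CPM in wt, a log2 fold change of 3.25 ± 0.15. All 4 genes were several times higher in both KO libraries than in either clone.

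The major histocompatibility complex on chromosome 17 changed in both directions within a short distance. MHC class II chains, which present peptides to T cells, formed a downward run (34257689 to 34386028). H2-Eb1 was at 2.06 and 2.00 CPM in KO, 18.3 CPM in clone 12 and 33.6 CPM in clone 16, and H2-Ab1 at 0.336 and 0.441 CPM against 5.54 and 4.33 CPM. H2-Aa and H2-Eb2 were at most 0.622 CPM in any of the 4 libraries, and H2-Aa was not called without KO 3 (adjusted p = 0.088). Ciita, the coactivator of class II genes, was also lower in KO, at 0.233 and 0.285 CPM against 1.66 and 0.676 CPM (adjusted p = 0.0084). Ciita was not called without KO 1 (adjusted p = 0.059) or with limma on TPM (0.051). Psmb8, the immunoproteasome subunit encoded next to them, was higher, at 2.07 and 2.03 CPM in KO against 0.0690 and 0.176 CPM. The peptide transporter Tap1 was at 6.996 and 6.75 CPM in KO, 1.45 CPM in clone 12 and 3.07 CPM in clone 16. The second transporter chain Tap2 and the immunoproteasome subunit Psmb9 were higher by 1.08 and 1.00 (log2), but neither passed with the KO libraries summed (adjusted p = 0.095 and 0.12). The class I chain H2-K1 fell by 1.58 ± 0.11 (log2), and its partner B2m did not pass the test (-0.14, adjusted p = 0.34).

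Hox genes, which pattern the body axis and are mostly silent in stem cells, formed upward runs in the Hoxa and Hoxd clusters. Of 26 tested Hox entries, 14 (53.8%) were higher, 2 (7.7%) lower and 10 not called, with a median log2 fold change of 1.44. Over all tested genes, 27.4% were higher and 29.7% lower. Such a rise was not limited to Hox genes. Medians were 1.18 for olfactory receptors (Olfr, 43 of 1138 tested) and 1.19 for vomeronasal receptors (Vmn, 52 of 353 tested). KO libraries 1 and 3 had counts in 19433 and 19434 genes, and clones 12 and 16 in 18246 and 18929. The part of this in the Hox result was not tested. Hoxa9 was at 4.23 and 4.46 CPM in KO and 0.138 and 0.0541 CPM in wt. Hoxa13 was at 0.388 and 0.441 CPM in KO with 1 count in clone 12 and none in clone 16. In the Hoxd cluster, Hoxd9 rose by 2.79 ± 0.43, Hoxd3 by 2.44 ± 0.35 and Hoxd8 by 2.18 ± 0.35 (log2). Hoxb9 was at 7.01 and 6.26 CPM against 2.69 and 1.93 CPM. Hoxc4 and Hoxc13 went the other way, by -3.88 ± 0.56 and -1.12 ± 0.16. Both KO libraries were above both clones for Hoxa9, Hoxd9, Hoxd3, Hoxd8 and Hoxb9, at levels of 7.01 CPM or less. The same held for 40.1% of all tested genes.

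Of 28 PI3K, AKT and mTOR genes, which carry growth factor signals to translation and growth, 15 were higher and 6 lower in KO, and all 21 held against each clone (median 0.35). With the KO libraries summed, 10 were higher and 3 lower. Over all tested genes, 27.4% were higher and 29.7% lower, the shares to set beside this count and those that follow. The kinase Akt2 was at 165 and 165 CPM in KO and 81.8 and 79.3 CPM in wt. The catalytic subunit Pik3cb was at 124 and 120 CPM against 50.9 and 55.0 CPM, and the mTORC2 subunit Rictor rose by 1.18 ± 0.12 (log2). Phlpp2, a phosphatase that removes the activating phosphate from AKT, rose most of these 4, from 8.58 and 12.0 CPM in wt to 50.6 and 49.8 CPM in KO. All 4 were above both clones in both KO libraries, as were 40.1% of all tested genes. The median span of this list, 76.7 kb, was long, and long genes were higher in KO as a group (below); the part of span in this result was not tested.

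Of 25 LIF, JAK and STAT genes, the route by which LIF maintains stem cells, 9 were higher and 4 lower (median 0.33). The receptor chain Il6st was at 238 and 247 CPM in KO and 97.1 and 104 CPM in wt, and the kinase Jak1 rose by 1.06 ± 0.07. Socs3, a feedback inhibitor induced by this pathway, was at 28.0 and 30.8 CPM against 11.7 and 11.1 CPM. Pim1, a kinase also induced by STAT3, was lower, at 77.2 and 77.3 CPM in KO and 162 and 148 CPM in wt. Receptor, kinase and inhibitor were higher in every KO library than in either clone, and Pim1 lower. Such absence of overlap was found for 81.7% of all tested genes.

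Of 20 FGF genes, 5 were higher and 10 lower in KO (median -0.51), and 3 and 6 with the KO libraries summed. The intracellular FGF homologue Fgf11 was at 0.336 and 0.194 CPM in KO against 4.58 and 4.90 CPM, and the ligand Fgf10 at 0.0517 and 0.130 CPM against 1.90 and 3.35 CPM. The ligand Fgf1 went up, to 2.19 and 1.35 CPM from 0.317 and 0.325 CPM, as did the non-signalling receptor Fgfrl1, by 1.09 ± 0.20. All cells were grown with an inhibitor of MEK, a kinase below FGF receptors.

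The Notch receptors, which are cut on contact with a neighbouring cell's ligand and then act in the nucleus, moved in opposite directions. Notch3 was at 7.03 and 6.14 CPM in KO and 83.4 and 68.0 CPM in wt, a log2 fold change of -3.52 ± 0.13 (adjusted p = 1.2e-05). Notch1 was at 88.7 and 86.3 CPM against 42.6 and 43.1 CPM, and Notch4 at 50.7 and 51.1 CPM against 17.9 and 18.9 CPM. Numbl, a Notch antagonist, fell by 1.60 ± 0.12. In the whole list of 21 genes, 5 (23.8%) were higher and 10 (47.6%) lower (median -0.40). In the Hedgehog pathway, the signal transducer Smo was at 2.88 and 2.67 CPM in KO and 19.8 and 22.4 CPM in wt. The ciliary kinesin Kif7 and the repressor Sufu fell by 1.32 ± 0.12 and 0.62 ± 0.09, while the ligand trap Hhip rose by 2.75 ± 0.31. Of its 15 tested genes, 3 were higher and 6 lower (median -0.26).

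**Figure D3:**
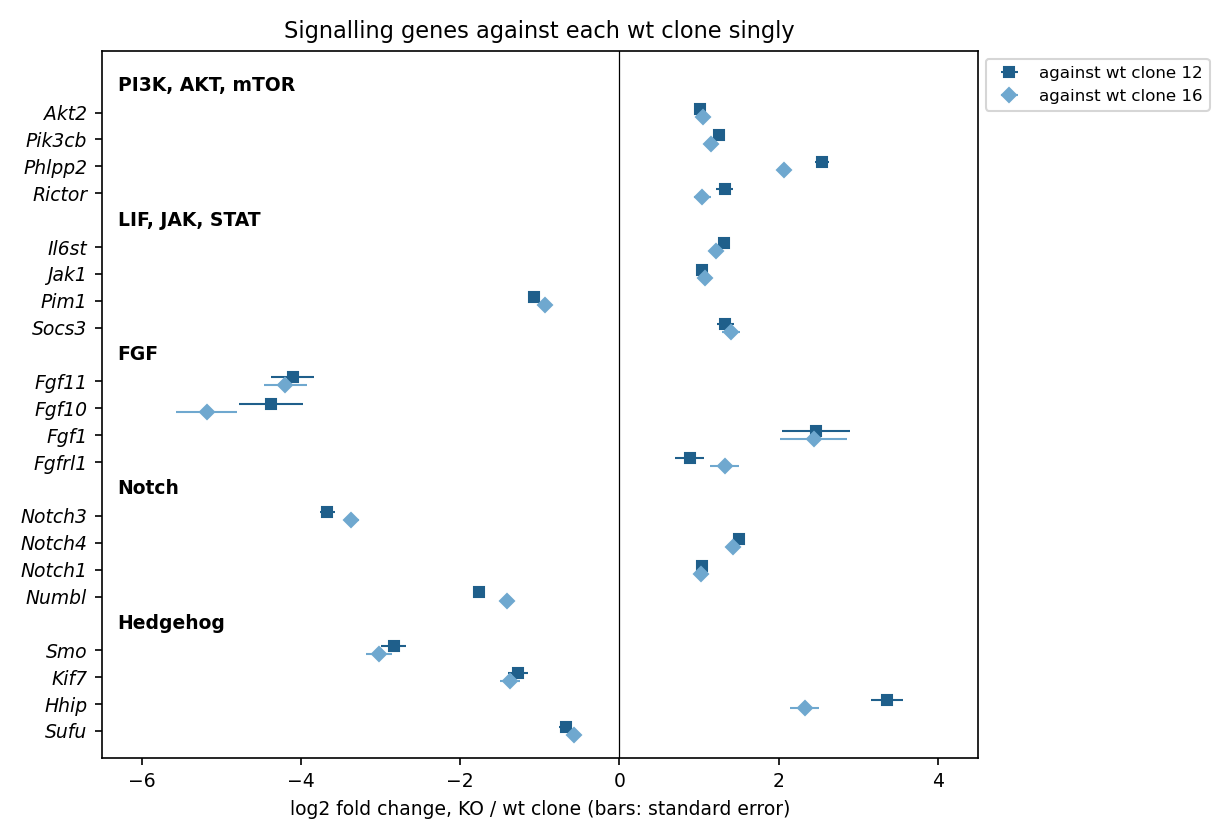
Log2 fold change of KO against wt clone 12 (squares) and wt clone 16 (diamonds), with standard errors, for 4 genes of each of 5 pathways, those with the smallest p. Every gene lies on the same side of 0 against each clone, which the choice by p against the same clones favours. Notch3 lies near -3.5 and Notch1 and Notch4 above 1.

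Of 18 tested Mapk genes, none was higher and 11 were lower in KO (median -0.41), and 10 of the 11 held against each clone. The stress kinase Mapk14, p38 alpha, was at 79.9 and 80.6 CPM in KO and 137 and 142 CPM in wt. The JNK scaffolds Mapk8ip1 and Mapk8ip2 fell by 1.81 ± 0.12 and 2.86 ± 0.20 (log2). The median exonic GC content of the Mapk genes was 54.2%, high among tested genes, and its part in the result was not tested.

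In metabolism, polyamine synthesis was lower at several steps. Odc1, ornithine decarboxylase and the first enzyme of the route, was at 376 and 381 CPM in KO and 662 and 695 CPM in wt. Srm, spermidine synthase, was at 126 and 129 CPM against 268 and 218 CPM. Smox, which oxidises spermine, moved up by 0.97 ± 0.09, and Paox, which oxidises acetylated polyamines and overlaps Echs1, fell by 1.49 ± 0.12. Of 11 genes, 2 were higher and 6 lower (median -0.50), each of the 8 against each clone. Cytosolic tRNA synthetases, which load amino acids onto tRNAs, were lower in 15 of 20 cases and higher in 2 (median -0.40), with all 17 calls held against each clone. Yars was at 95.2 and 97.9 CPM in KO and 206 and 189 CPM in wt, and Tars, Cars and Nars fell by 0.76 ± 0.06, 0.65 ± 0.06 and 0.62 ± 0.07.

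Ftl1 and Fth1, the ferritin chains that store iron, fell by 1.04 ± 0.08 and 0.98 ± 0.10 on the log2 scale; Ftl1 was at 2150 and 2111 CPM in KO and 4648 and 4087 CPM in wt. Tfrc, the transferrin receptor through which iron enters, was at 482 and 503 CPM in KO against 210 and 252 CPM. Of 21 iron and haem genes, 3 were higher and 13 lower (median -0.30), and 2 and 7 with the KO libraries summed. Glycogen genes were lower in 11 and higher in 5 of 19 cases (median -0.34), and lower in 9 and higher in 3 with the KO libraries summed. Gys1, the glycogen synthase, was at 65.8 and 66.3 CPM in KO and 149 and 121 CPM in wt, and Ppp1r3b, which brings a phosphatase to glycogen, fell by 2.50 ± 0.21. Ugp2, which makes the UDP-glucose that glycogen synthase uses, rose by 0.86 ± 0.10.

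Of 27 redox genes, 12 were higher and 6 lower (median 0.21), and 10 and 2 with the KO libraries summed. Gsto1, a glutathione transferase that overlaps Cfap43, was at 138 and 142 CPM in KO and 25.6 and 27.7 CPM in wt. Nqo1 rose by 1.30 ± 0.10, whereas Hmox1, haem oxygenase, was at 22.9 and 22.8 CPM against 60.3 and 74.01 CPM. Both are known targets of the factor NRF2, and they moved apart. Of the zinc transporters, the importer Slc39a14 rose by 2.44 ± 0.23, the exporter Slc30a1 by 1.13 ± 0.07, and the importer Slc39a4 fell by 1.82 ± 0.12.

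Of 21 listed claudin and tight junction genes, none was called higher and 8 (38.1%) lower, with 29.7% lower over all tested genes. The list median was -0.20, with -0.12 against clone 12 and -0.35 against clone 16. With DESeq2, 1 was higher and 7 lower. In the wider family of 18 tested claudins, 1 was higher, 3 lower and 14 not called. Cldn6, a claudin of early epithelia, was at 0.375 and 0.505 CPM in KO and 13.2 and 9.44 CPM in wt. The junction plaque proteins Cgn and Tjp3 fell by 2.26 ± 0.17 and 2.15 ± 0.26, and Amotl1 by 1.12 ± 0.12. Among keratins, the intermediate filaments of epithelia, 7 of 13 rose and 2 fell. Krt17 was at 36.2 and 38.0 CPM in KO, 4.86 CPM in clone 12 and 2.50 CPM in clone 16. Krt8 was at 26.8 and 28.98 CPM against 9.99 and 6.90 CPM, and Krt19 rose by 2.15 ± 0.31. Of 15 contractile and muscle genes, 2 rose and 7 fell (median -0.71), and 1 rose and 3 fell with the KO libraries summed. Trim63, a muscle ubiquitin ligase like Fbxo32, went the opposite way from it, at 0.647 and 0.518 CPM in KO and 7.08 and 7.17 CPM in wt. The filament gene Des and the atrial light chain Myl7 fell by 4.38 ± 0.52 and 1.91 ± 0.35.

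Among chromatin complexes, Polycomb genes were called higher in 7 and lower in 8 of 24 cases (5 and 4 with the KO libraries summed), shares close to those over all tested genes, and their median of 0.03 became -0.02 with upper-quartile scaling. Cbx7, the main stem cell CBX reader, was at 122 and 119 CPM in KO and 225 and 227 CPM in wt, while Cbx8 was at 5.13 and 4.95 CPM against 1.71 and 1.33 CPM. Bmi1 and the methyltransferase Ezh1 rose by 1.19 ± 0.14 and 0.76 ± 0.09. Of 21 BAF remodellers, 7 were higher and 7 lower (33.3% each), also close to the 27.4% and 29.7% over all tested genes. Among them the ATPase Smarca2 was at 27.9 and 26 CPM in KO, 1.49 CPM in clone 12 and 3.03 CPM in clone 16. The subunits Dpf1 and Phf10 fell by 1.62 ± 0.12 and 0.81 ± 0.06. Cohesin and condensin genes, which fold and pair chromosomes, were higher in 13 and lower in 3 of 22 cases (median 0.41), and higher in 8 and lower in 3 with the KO libraries summed. Smc4, Stag2 and Smc3 rose by 0.80 ± 0.08, 0.84 ± 0.10 and 0.84 ± 0.11, and Ncapd2 fell by 0.46 ± 0.06. The median exonic GC content of this list was 42.8%, low among tested genes, and its part in the result was not tested.

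Gene families defined only by a shared symbol stem gave groups that no list had named. Of 211 families with at least 10 tested members, the Gbp genes had the highest median. Next came Ugt (1.26, 9 higher and 1 lower of 11, of which 9 overlap another gene) and Vmn (1.19, 19 higher and 3 lower of 52). Olfr (1.18, 15 higher and 4 lower of 43) and Krt (1.12) followed. The families described below were thus not the next highest. With limma on log2(TPM + 1), medians lay nearer to 0, at 0.59 for Gbp, 0.23 for Adam, 0.21 for Krt, 0.19 for Dock and 0.17 for Prdm among the families, and at -0.13 for Notch, -0.17 for FGF and -0.17 for contractile genes among the lists. The Dock genes, which activate small GTPases of the Rac and Cdc42 type, were higher in 8 of 11 cases and lower in 2 (median 0.83). Dock2 was at 9.67 and 9.82 CPM in KO and 1.21 and 1.41 CPM in wt, and Dock5 at 168 and 168 CPM against 76.6 and 95.4 CPM. The median genomic span of the Dock genes was 256 kb, and its part in the result was not tested. Adam proteases, which shed membrane proteins, were higher in 10 and lower in 2 of 19 cases (median 0.85). Adam19 was at 359 and 351 CPM in KO and 93.7 and 111 CPM in wt, Adam23 at 237 and 237 CPM against 49.9 and 62.8 CPM, and Adam9 rose by 1.36 ± 0.11. Prdm zinc finger genes were higher in 9 and lower in none of 13 cases (6 higher with upper-quartile scaling and 5 with the KO libraries summed), among them Prdm14, a naive pluripotency factor, by 0.54 ± 0.07, Prdm4 by 0.57 ± 0.07 and Prdm11 by 1.83 ± 0.29.

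Lsm genes, which form rings on U6 RNA and on messages for decay, were lower in 10 and higher in none of 13 cases (median -0.51; 6 lower with the KO libraries summed), with Lsm5 at 16.8 and 16.7 CPM in KO and 34.6 and 35.0 CPM in wt. Tomm and Timm genes, the import channels of mitochondria, were lower in 8 of 10 and 9 of 15 cases, and in 5 and 7 with the KO libraries summed. Tomm5 was at 28.2 and 26.5 CPM in KO and 68.1 and 67.3 CPM in wt, and Tomm7 fell by 0.72 ± 0.07. Fkbp prolyl isomerases were lower in 10 of 14 cases. Fkbp11, of the endoplasmic reticulum, was at 1.55 and 1.39 CPM in KO against 16.3 and 12.5 CPM, and Fkbp5 and Fkbp6 fell by 0.94 ± 0.07 and 1.94 ± 0.18. Of 13 acyl-CoA thioesterases (Acot), which free fatty acids from coenzyme A, 6 were lower, 1 higher and 6 not called. Their median was -1.59, and -0.19 with limma on log2(TPM + 1), a scale that understates the change of low genes. On chromosome 12, Acot1 was at 2.11 and 1.58 CPM in KO and 18.7 and 11.4 CPM in wt, and Acot2 fell by 2.48 ± 0.27. Acot9, on the X chromosome, rose by 1.36 ± 0.14.

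Among the Mcm genes, which load and form the replicative helicase, 7 of 10 fell and 2 rose (median -0.44). Mcm5 was at 288 and 301.1 CPM in KO and 505 and 556 CPM in wt, and Mcm4 and Mcm2 fell by 0.74 ± 0.06 and 0.62 ± 0.05. Mcm7 rose by 0.30, and its span holds the hairpins of miR-25, miR-93 and miR-106b, whose reads enter its count. It was named after its value was seen. In the annexins, Anxa6 moved against Anxa3, at 5.33 and 4.64 CPM in KO and 90.4 and 89.4 CPM in wt, and Anxa4 rose by 1.10 ± 0.08.

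**Figure D4:**
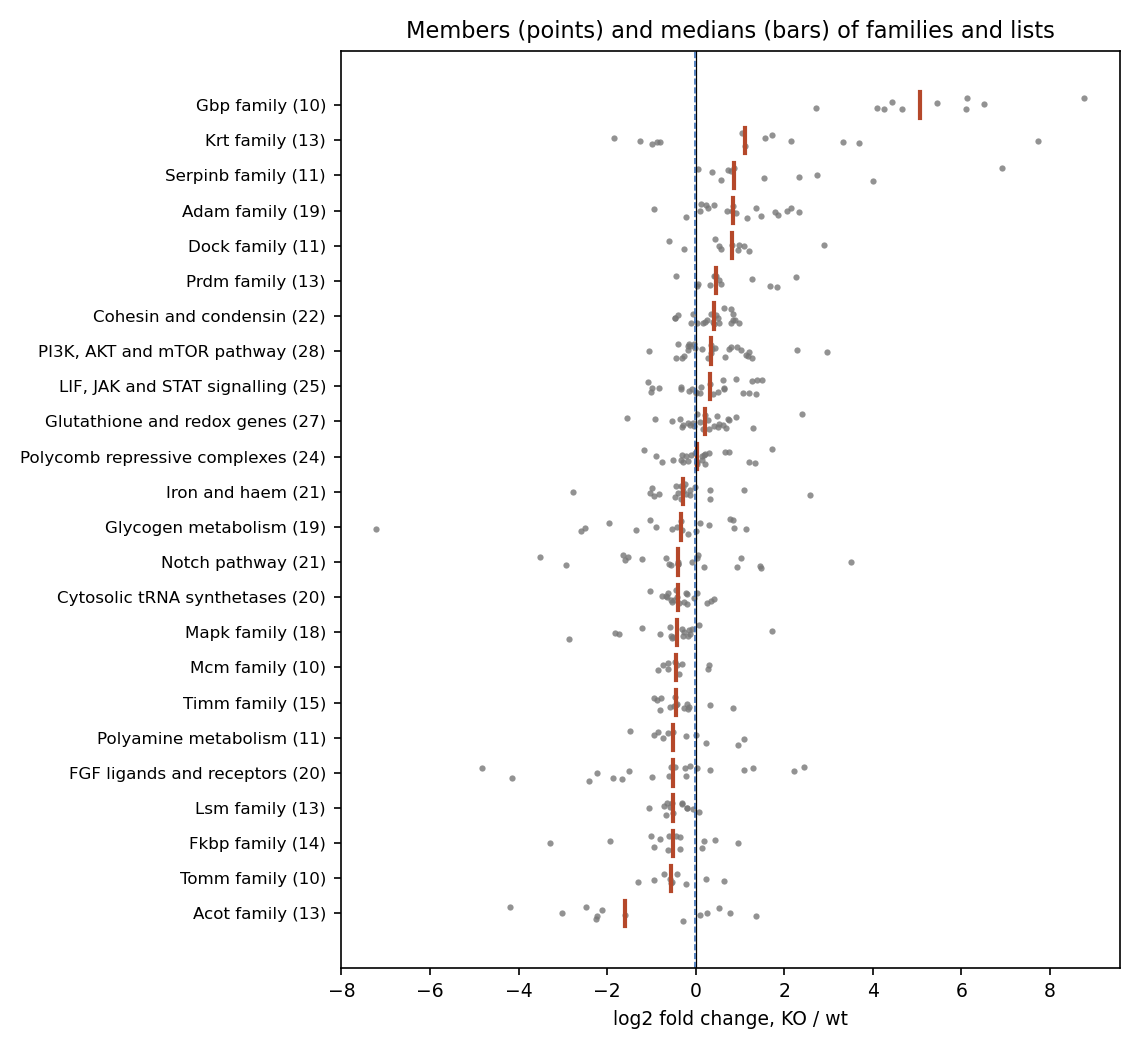
Log2 fold change of KO against wt for each tested member (points) of 13 symbol families and 11 gene lists, with the median of each (bar), the number of members in parentheses and the median of all tested genes (dashed line). The Gbp family stands at 5.06 and the Acot family at -1.59, with the other medians between -0.56 and 1.12.

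In absolute terms the largest gain outside the mitochondrial genome was in Hsp90aa1, the inducible cytosolic HSP90, at 4302 and 4276 CPM in KO and 1924 and 1760 CPM in wt. The mitochondrially encoded mt-Co1, mt-Co2, mt-Co3, mt-Atp6 and mt-Nd1 made up the other 5 of the 6 largest gains, with log2 fold changes of 0.49 to 0.73. The 6 largest losses were in Aldoa, Pkm, Ftl1, Eno1, Slc2a3 and Eef2. Of these, the pyruvate kinase Pkm went from 5379 and 4770 CPM in wt to 1768 and 1760 CPM in KO. The elongation factor Eef2 was at 3332 and 3317 CPM in KO and 5525 and 4831 CPM in wt. In these bulk samples, fewer cells with a message and less of it per cell cannot be told apart.

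The wt clones themselves differed at 2087 of 17070 genes (12.2%), and 72 genes were called in opposite ways against them. KO was above clone 12 and below clone 16 for 29 genes and the reverse for 43. The calcium pump Atp2a3 was at 21.4 and 21.2 CPM in KO, 30.8 CPM in clone 12 and 14.2 CPM in clone 16. The X-linked near-copies Dmrtc1c1 and Dmrtc1c2 were each at 1.45 and 1.61 CPM in KO, 0.607 CPM in clone 12 and 4.52 CPM in clone 16. Among the 12 genes named for this pattern, only these 3 kept both calls under every alternative run. The others were Lama3, Slfn9, Lipa and Xlr3c in the first direction, and Pdzrn3, Kcnj6, Cited1, Pcsk1n and Adgrb1 in the second. By the rule that picked these genes, KO lay between the clones for all of them.

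Other genes were called against 1 clone and not the other. Genes called against clone 12, with a p above 0.2 against clone 16 and a mean log2 CPM of at least 1, numbered 708, and the reverse was found for 402. Of the 708, 216 (30.5%) also differed between the clones, as did 123 (30.6%) of the 402. Zscan4 genes, which mark the brief passage of stem cells through a state like the 2-cell embryo, were low in clone 12. Zscan4d was at 5.66 and 5.86 CPM in KO, 0.455 CPM in clone 12 and 4.12 CPM in clone 16, and Zscan4e at 7.59 and 8.31 CPM, 1.19 CPM and 8.68 CPM. Zscan4b followed the same order, and reads of these close copies can be shared. Against clone 16, Zscan4d passed in 3 alternatives (adjusted p = 0.0014 with only KO and wt libraries, 0.0031 without one or the other E518K library). Zscan4b passed without one or the other E518K library (0.039 and 0.044). The list of 20 genes of that state had a median of 2.77 against clone 12 (genes without a count at their bound) and 0.44 against clone 16, with 3 higher and none lower against wt. Dppa2, an upstream activator of this state, held against each clone, at 83.9 and 87.0 CPM in KO and 43.8 and 54.1 CPM in wt.

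Further genes of this kind were scattered. The angiopoietin receptor Tek was at 4.58 and 4.498 CPM in KO, 4.58 CPM in clone 16 and 0.593 CPM in clone 12. S100a13, a calcium-binding protein, was at 13.8, 13.6 and 14.3 CPM in the KO libraries and clone 16 but at 57.5 CPM in clone 12. In the other direction, Tex19.1, a germ cell gene that restrains retrotransposons, was at 9.60 and 8.58 CPM in KO, 10.4 CPM in clone 12 and 32.5 CPM in clone 16. Against clone 12, Tex19.1 passed without one or the other E518K library (adjusted p = 0.034 and 0.040). Xlr3b was at 6.09 CPM in clone 16 and at most 1.02 CPM elsewhere among the 4 libraries. The trophectoderm factor Cdx2 and the homeobox gene Msx2 were at 0.514 and 0.811 CPM in clone 16 and at 1.63 and 2.92 CPM in clone 12, and the clones differed (adjusted p = 0.0097 and 0.0069). Against clone 12, KO passed for Cdx2 with limma on TPM (adjusted p = 0.048). None of Zscan4d, Tek, S100a13, Xlr3b, Cdx2 and Msx2 passed against both clones together.

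The direction of change went with the GC content and span of genes. When tested genes with coordinates were split into 5 equal groups by exonic GC content, the median log2 fold change went from 0.41 in the lowest group to 0.12, -0.08, -0.29 and -0.33 in the highest. By genomic span it went from -0.32 in the shortest group to 0.32 in the longest. Of the genes with the lowest GC, 49.5% were called higher and 10.8% lower, and of those with the highest GC 14.5% and 43.8%. The trends were in the same direction against each clone. GC content and span are linked to each other and to how libraries are made, and the part of either in the results above was not tested.

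Seed matches of the stem cell miRNAs were then counted in the 3′ UTRs (GENCODE M21) of 14981 tested genes. For each gene the longest 3′ UTR of any transcript was used, so it can include bases that are coding in another transcript. The miRNAs below, from RefSeq, group by seed (bases 2 to 8, in capitals): the first 3 share AAGUGCU, miR-17 and miR-93 share AAAGUGC, and let-7g is shown as a family of another seed.
mmu-miR-291a-3p: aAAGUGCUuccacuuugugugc
mmu-miR-294-3p: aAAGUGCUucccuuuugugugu
mmu-miR-302d-3p: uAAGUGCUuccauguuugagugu
mmu-miR-17-5p: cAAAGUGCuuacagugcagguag
mmu-miR-93-5p: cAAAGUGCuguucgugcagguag
mmu-let-7g-5p: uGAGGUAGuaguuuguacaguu
The match of the miR-290 and miR-302 seed is AGCACTT on the message. Genes with none, 1, 2 and 3 or more such sites had median log2 fold changes of -0.08, 0.19, 0.22 and 0.53, and 25.2%, 38.5%, 41.8% and 63.3% of them were called higher. Against clone 12 the medians with 3 or more and with no site were 0.60 and -0.08, and against clone 16 they were 0.46 and -0.07. For miR-17 the medians were -0.08, 0.19, 0.42 and 0.56. A rise with site number was not limited to these seeds. For miR-26 the medians were -0.06, 0.19, 0.25 and 0.76, for miR-19 -0.07, 0.13, 0.33 and 0.70, and for miR-130 and miR-301 -0.06, 0.15, 0.34 and 0.41. For miR-25 and miR-92 they were -0.06, 0.18 and 0.50 with none, 1 and 2 sites. For miR-15 and miR-16 the medians were -0.06, 0.00, 0.05 and 0.06, for let-7 -0.04, -0.01, 0.01 and 0.20 (30 genes in the last group), and for miR-34 -0.04, 0.01, -0.05 and -0.01. Within each of the 5 GC groups, genes with 1 miR-290 and miR-302 site had a higher median than genes with none, by 0.08, 0.19, 0.10, 0.18 and 0.29 from low to high GC. The same held in all 5 groups for miR-17, miR-19, miR-25 and miR-92, miR-130 and miR-301, and miR-26. For miR-26 the differences were 0.08, 0.10, 0.10, 0.12 and 0.07. UTR length was not held fixed, and its part in these trends was not tested.

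**Figure D5:**
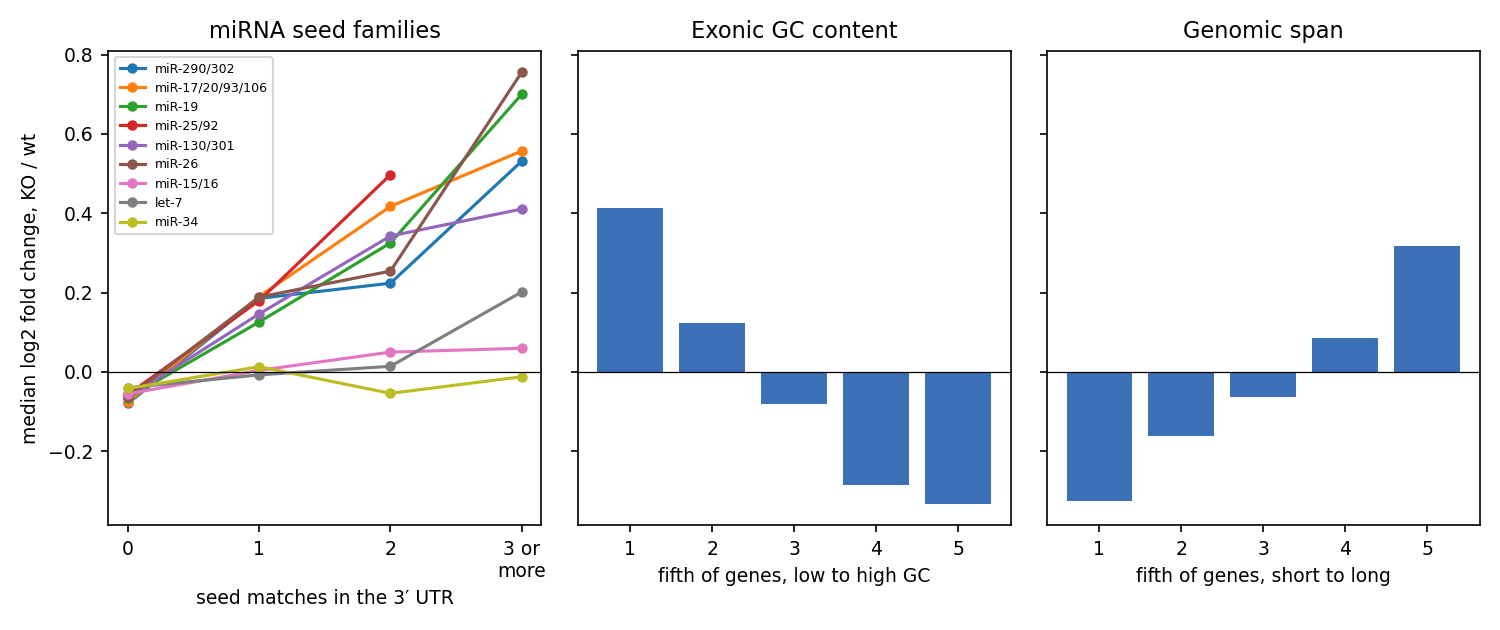
Median log2 fold change of KO against wt by the number of seed matches in the 3′ UTR for 9 miRNA seed families (left), and in 5 equal groups of genes by exonic GC content (middle) and genomic span (right). The miR-290 and miR-302 line climbs from -0.08 to 0.53, that of miR-26 to 0.76 and that of miR-34 stays near 0, and medians run from 0.41 to -0.33 with GC and from -0.32 to 0.32 with span.

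Genes described above held these sites whichever way they moved. Over all 14981 genes with a UTR, 14.3% held 1 site, 2.54% held 2 and 0.73% held 3 or more. The genes named here were not compared with these shares. Among those that were higher, Nlrp12 held 4 and Phlpp2 held 3, and Irf2, Lats2, Il6st, Akt2, Rictor, Tfrc, Ugp2, Smc4, Ezh1, Adam9, Prdm4, Bhmt, Bhmt2, Arsb and Trim12c held 1 each. Among those that were lower, Loxl2, Fgf10, H2-Eb2, Ciita, Mapk14, Sufu, Cars, Tomm7 and Ncapd2 held 1 each. The stretches below, with the match in capitals, are from 4 genes that rose and, as the largest falls among the carriers, Fgf10 and Loxl2. Positions count from the first base of the longest UTR. Such a stretch can be coding in another transcript of its gene, which was not checked for Lats2 or the others.
Nlrp12, bases 56 to 62: ttccctctgctttgaAGCACTTgaggtgga
Nlrp12, bases 1651 to 1657: agactcaaaagtagtAGCACTTtctatgta
Nlrp12, bases 1775 to 1781: aacacacaaaagggaAGCACTTtccactta
Nlrp12, bases 3498 to 3504: ggcacacaaagtggaAGCACTTtctcattc
Phlpp2, bases 543 to 549: atgttgtgtaacgagAGCACTTttcattga
Phlpp2, bases 2047 to 2053: gttatgtggaaaagcAGCACTTcggtagtc
Phlpp2, bases 3209 to 3215: agacctccataagggAGCACTTggctgtta
Irf2, bases 957 to 963: tgcaccttatcttgaAGCACTTacaatagg
Lats2, bases 1318 to 1324: cgcctccgtacccaaAGCACTTgctgctgc
Fgf10, bases 481 to 487: aagcatttactggaaAGCACTTgggtcata
Loxl2, bases 888 to 894: tgtagctgctttctgAGCACTTacccttct
Nlrp12, Phlpp2, Irf2 and Lats2 were 2.29 to 5.42 higher in KO on the log2 scale, and Fgf10 and Loxl2 fell by 4.83 and 4.72. The largest increases without such a site, among them Zbp1, Evx1, Anxa3, Fbxo32, Rsad2 and Irgm1, were of the same order.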

How the data were processed

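Poly(A)-selected RNA was sequenced from cultured mouse embryonic stem cells. Per the labels' protocols it was read in paired ends on a BGISEQ-500. The deposited count table holds whole-number counts per gene symbol, unnormalized, and the deposited TPM table holds the authors' length-scaled values of the same libraries. Per the submitters' processing notes, STAR, bedtools and GRCm38.p6 were used, with versions and settings not given in the sources used here. Counts were tested with edgeR 4.0.16 in R 4.3.3 (TMM factors, filter at a minimum count of 10, robust quasi-likelihood fit over all 6 libraries, 3 residual degrees of freedom, Benjamini-Hochberg adjustment, threshold 0.05), and the script was tested on simulated data. For single clones the wt libraries formed groups of their own, with the spread taken from the KO and E518K pairs (2 residual degrees of freedom). The lone clone was thus assumed to vary like them, although the wt pair varied more than either. The contrast between clones was added after the values were seen. DESeq2 1.42.0 and limma 3.58.1 on log2(TPM + 1) were alternatives. CPM use TMM factors, an error is the SE of the fit, and n is 2 libraries per group.

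Of 21978 entries, 19819 were matched to GENCODE M21. Members, 47 gene lists and the families by symbol stem were chosen with earlier results of these data known. Named genes were the 5 given markers; the 15 largest increases and decreases called against each clone, with a mean log2 CPM of at least 1, no overlap with another gene and no predicted model; 6 per orientation called in opposite ways and 6 per clone called against 1 only; the 6 largest gains and losses in CPM; genes with at most 3 counts against at least 50; and 4 members per list and 3 per family by p. Genes of runs, Hox, antigen presentation, Mcm7 and Dppa2 among others were named after their values were seen.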

Additional observations from a re-analysis of the deposited data

Results flagged for a closer look

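KO was called above wt clone 12 and below wt clone 16 for 29 genes, and below clone 12 and above clone 16 for 43 genes. These stand out because every KO library moved one way against 1 clone and the opposite way against the other. The clones are 1 library each, so clone and library cannot be told apart. The contrast between the clones passed for all 72, but it rests on the values that chose them. Groups of 2 libraries are too small to test for an outlying sample.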

How the results depend on the processing

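No paired analysis was possible because KO and wt share no replicate number in the labels. The count against wt of 9429 became 6163 with the KO libraries summed, and ranged from 6084 to 10958 when 1 library was left out (6196 without KO 1, 6084 without KO 3). The counts against clone 12 alone and clone 16 alone ranged from 8479 to 12631 and from 7005 to 11788 over libraries left out, and the count held against each clone from 5856 to 8610. With DESeq2 the counts were 9361 against wt, 9399 against clone 12, 8174 against clone 16 and 7113 held against each, and every other setting stayed within 1.5 times. Upper-quartile scaling lowered the share of calls that were higher from 48.0% to 43.2%. For 214 named genes, 3 alternative values changed sign: Tek against clone 16 (0.00027 with RLE factors, 0.0014 with only KO and wt libraries) and Msx2 against clone 12 (-0.013 without KO 1, within a range of -0.013 to 0.367 over libraries left out). Calls were lost in 62 of 3225 alternative values, in Dgcr8, Psmb9, Tap2, H2-Aa, Ciita, Trim30a and the genes called in opposite ways. Calls appeared in 8, all against the clone from which Zscan4d, Zscan4b, Tex19.1 or Cdx2 had not differed. The cause was not tested. The number of libraries, 2 per group, limits precision, and genes with few counts are limited by depth as well.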
